A study of Rattus norvegicus with 6 samples.

Results

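The let-7 and miR-98 family was measured in adult rat cardiomyocytes and in myocyte-derived cells (MDCs) by 9 of the 375 rodent miRNA assays on a TaqMan low-density card. Members were taken by name, as all assays whose name starts with let-7 together with mmu-miR-98. They are mmu-let-7a, mmu-let-7b, mmu-let-7c, mmu-let-7d, mmu-let-7e, mmu-let-7f, mmu-let-7g, mmu-let-7i and mmu-miR-98. The rule uses names alone and no measured value, although earlier results of these data were known when it was set. All 9 gave a signal in at least 1 set, and 8 gave one in every set and were tested.

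Cells came from hearts of male Wistar-Kyoto rats, and the deposited data hold 3 sets of values labelled Myocyte and 3 labelled MDC. The labels give an age of 2 months, whereas the methods of the study give a somewhat younger range in weeks. Myocytes are the purified rod-shaped muscle cells of the heart, and MDCs are the round, loosely attached cells collected from long-term cultures of such myocytes. The labels give 2 weeks in mitogen-rich medium for both groups, whereas the text of the study calls its myocytes fresh, so the culture time of the myocyte sets is not settled. The labels name no transgene or lineage mark, and how many animals stand behind a set is not given in the labels.

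The let-7 miRNAs are short RNAs that guide Argonaute proteins to messenger RNAs, mainly through pairing of the seed near their 5′ end, and lower the stability and translation of these targets. First found in Caenorhabditis elegans as a switch of developmental timing, they accumulate in mammals as cells differentiate, while the RNA-binding protein LIN28 blocks their maturation in stem cells. Known targets in mammals include Hmga2, Ras genes and Lin28 itself.

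All 9 members matched a rat mature miRNA in RefSeq (assembly GRCr8) by name. The mature sequences are shown because the members differ from each other by only a few bases, so that assays for near-identical RNAs can be set side by side. Bases 2 to 8, the seed, are in capitals.
let-7a: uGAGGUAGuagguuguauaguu
let-7b: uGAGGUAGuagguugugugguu
let-7c: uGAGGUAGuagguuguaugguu
let-7d: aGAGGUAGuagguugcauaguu
let-7e: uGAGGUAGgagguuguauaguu
let-7f: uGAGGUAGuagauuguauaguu
let-7g: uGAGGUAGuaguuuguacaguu
let-7i: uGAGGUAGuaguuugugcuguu
miR-98: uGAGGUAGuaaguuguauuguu

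The seed GAGGUAG was the same in all 9, and each mature RNA was 22 bases long. Counted from the 5′ end and with let-7a first, let-7c differed by A19G, let-7e by U9G and let-7f by G12A, each a single base. Further from let-7a were let-7b (A17G and A19G), let-7d (U1A and U16C), let-7g (G12U and U18C), miR-98 (G11A and A19U) and let-7i (G12U, A17G, U18C and A19U). None of the 270 other assays on the card that matched a rat miRNA by name had this seed.

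The members lie at several places in the rat genome. Positions given are those of the mature sequences, and distances are those between the longer spans of the miRNA genes. The let-7g sequence is at chr8:115701026-115701047 (plus strand), within the annotated spans of Wdr82 and Rpl29, and let-7i is at chr7:60527935-60527956 (minus strand). Neither has another miRNA gene within 10000 bases. let-7e is at chr1:67350243-67350264 (plus strand) within the span of Spaca6, 96 bases from the gene of miR-99b and 354 from that of miR-125a. let-7b lies at chr7:118684044-118684065 (plus strand). Its gene is 327 bases from a let-7c gene with its mature sequence at chr7:118683636-118683657, and the other copy of let-7c at chr11:29688127-29688148 lies 640 bases from the gene of miR-99a. let-7d is at chr17:16322273-16322294 (plus strand), in a cluster with copies of let-7a and let-7f. miR-98 is at chrX:24460663-24460684 (plus strand) within the span of Huwe1, 521 bases from the other copy of let-7f. The annotation table used here gives gene spans and no exons, so a position inside an exon or an intron was not assigned. An assay for a mature RNA made from 2 genes, as for let-7a, let-7c and let-7f, cannot tell which gene it came from.

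Each well yields a Ct, the PCR cycle at which fluorescence crosses a threshold, and a Ct lower by 1 cycle means that template was about 2 times as abundant. Levels are given here on a log2 scale as the mean Ct of the 4 U6 wells of a set minus the Ct of the assay, so that a higher value means more RNA. Of the 375 miRNAs, 212 gave a signal in Myocyte 1, 203 in Myocyte 2 and Myocyte 3, and 201 in every MDC set. Not a single well differed between Myocyte 2 and Myocyte 3 in having signal or not, nor among the 3 MDC sets, and their U6 wells ran in parallel (r from 0.996 to 1.000 over 4 wells). Such sets were taken as repeated readings of 1 card and averaged, which left 2 myocyte samples and 1 MDC sample. The methods name 2 biological and 2 technical repeats and do not say which set is which. Whether the readings come from separate cultures is not given in the labels. If the 2 biological repeats hold for each group, the single MDC sample taken here is fewer than that. The p-values therefore rest on how far the 2 myocyte cards lie apart, and variation between MDC cultures does not enter them.

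MDC 1 stood apart from the other sets. All 201 of its detected miRNA Ct values lay within 0.1 of a whole cycle, the farthest at 0.0862, whereas 17.2% to 22.4% did so in the other 5 sets. The 8 detected members lay within 0.0330 of a whole cycle in MDC 1. Its levels relative to U6 were on average lower than those of MDC 2 by 1.04 (SD of the difference 1.07 over 201 miRNAs), while MDC 2 and MDC 3 differed with an SD of 0.375. A Ct that can take only whole values resolves levels to about 1 log2 unit, so the differences and the counts of calls are given with and without MDC 1.

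**Figure D1:**
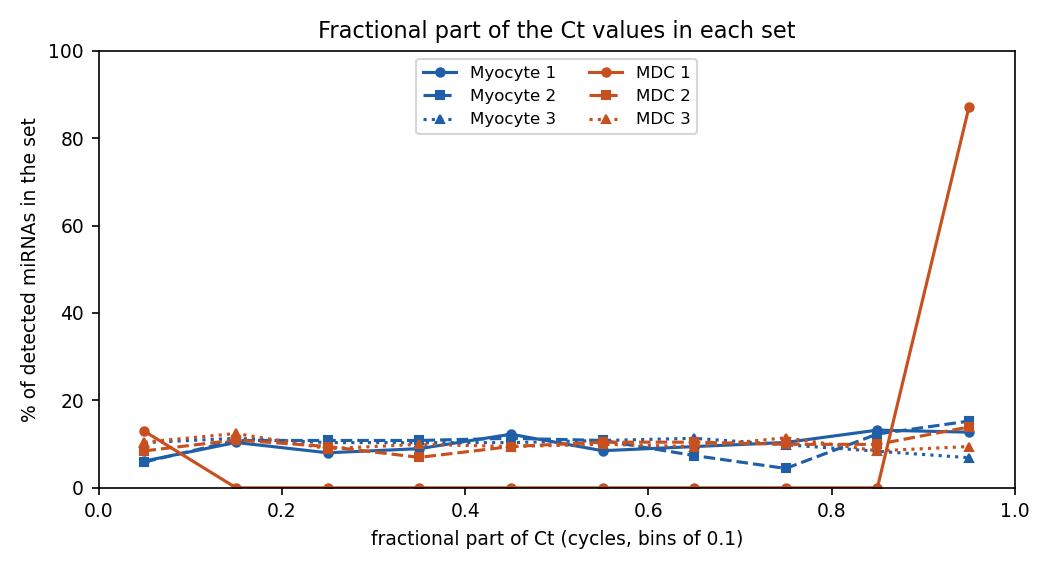
Percent of the detected miRNAs of each set (vertical axis) against the fractional part of their Ct in cycles, in bins of 0.1 (horizontal axis); blue lines are Myocyte sets and orange lines MDC sets. The values of MDC 1 fall only in the first and last bins, next to a whole cycle, and the other 5 sets spread over all bins.

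The labelled cell types were checked against miRNAs known to be enriched in them. Of 8 striated muscle assays, 5 were lower in MDCs and 3 (miR-208, miR-208b and miR-486) had no signal there, and the summed muscle level ranged from 4.32 to 4.57 in myocytes and from −8.09 to −7.30 in MDCs. Of 5 fibroblast assays, 4 were higher in MDCs and miR-199a-5p was detected there but in no myocyte set, with summed levels from −5.94 to −5.82 in myocyte sets and from −1.81 to −0.86 in MDC sets. Both endothelial assays and both smooth muscle assays were lower in MDCs. Of 5 leukocyte assays 3 were lower, 1 was higher and miR-142-5p had no myocyte signal, and the erythroid miR-451 had no signal in MDCs. These lists move with the comparison of myocytes and MDCs, and their part in the let-7 differences was not tested. In such bulk RNA, fewer cells of a type and less RNA per cell cannot be told apart.

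Relative to U6, the family did not move as 1 block. mmu-let-7g differed by −3.58 on the log2 scale, mmu-let-7c by −1.96 and mmu-let-7d by −1.91, all lower in MDCs, whereas the other 5 tested members lay between −0.73 and −0.05. In all, 4 of 8 members were called lower in MDCs (50%) and 0 higher by limma with Benjamini-Hochberg adjustment over all 157 miRNAs with signal in every sample, at a threshold of 0.05. Over all these miRNAs 52.2% were called lower and 28.0% higher. The share of lower calls among members was thus near that of the whole card. The median member differed by −0.69 and the median of all tested miRNAs by −0.80. Without MDC 1, again 4 members were called lower, against 47.1% of all miRNAs, and the medians were −0.54 for members and −0.30 for all. These 4 included let-7c, let-7d and let-7g in both cases, with let-7i as the fourth in the first and let-7f in the second. Every difference has the same SE of 0.35, because the moderation gave all miRNAs 1 pooled SD of 0.284 (2 myocyte samples, 1 MDC sample).

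**Figure D2:**
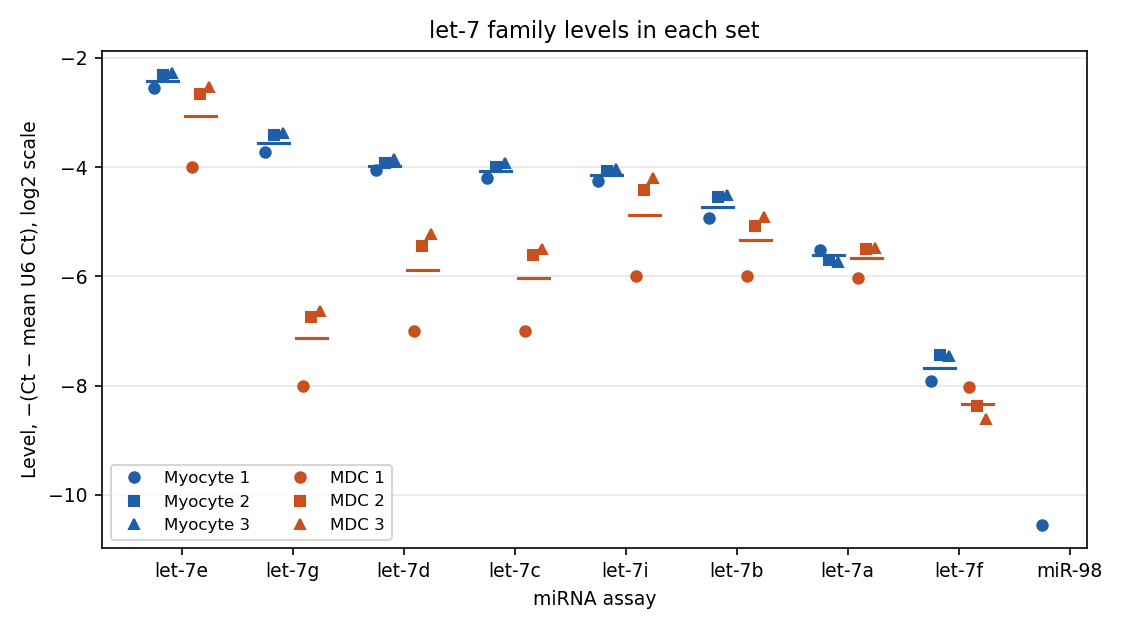
Level of each member (horizontal axis, ordered by its myocyte level) in each of the 6 sets, as mean U6 Ct minus Ct on a log2 scale; blue symbols are Myocyte sets, orange symbols MDC sets and bars the group means after averaging repeated readings. let-7g drops from between −3.72 and −3.37 to between −8.01 and −6.64, let-7a overlaps between groups, and miR-98 has a value in Myocyte 1 only.

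let-7g was the member that differed by most between the groups. Its level was −3.72 in Myocyte 1, −3.41 in Myocyte 2 and −3.37 in Myocyte 3. In the MDC sets it was −8.01 in MDC 1, −6.75 in MDC 2 and −6.64 in MDC 3. All MDC readings lay far below all myocyte readings. The difference was −3.58 (SE 0.35, 95% interval −4.27 to −2.89, limma adjusted p = 8.07e-19), a 12.0-fold lower level. Without MDC 1 the difference was −3.14 (adjusted p = 1.67e-15), or 8.83-fold. let-7g ranked 34 from the lowest among the differences of all 157 miRNAs.

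let-7c and let-7d fell by nearly the same amount, although they lie on different chromosomes. let-7c was at −4.19, −4.01 and −3.92 in myocytes and at −7.00, −5.61 and −5.49 in MDCs. let-7d was at −4.06, −3.93 and −3.84 in myocytes and at −7.00, −5.44 and −5.22 in MDCs. For both, the groups did not overlap, and MDC 1 gave the lowest reading. The differences were −1.96 for let-7c (SE 0.35, limma adjusted p = 1.54e-07, 3.89-fold lower) and −1.91 for let-7d (SE 0.35, adjusted p = 2.81e-07, 3.77-fold lower). They came to −1.47 (adjusted p = 6.16e-05) and −1.36 (adjusted p = 0.000216) without MDC 1.

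let-7i, let-7e and let-7b had MDC readings that overlapped those of the myocytes. let-7i was at −4.25, −4.07 and −4.04 in myocytes and at −5.99, −4.43 and −4.21 in MDCs. Its difference of −0.73 passed the test narrowly (limma adjusted p = 0.0488) and came to −0.17 without MDC 1 (adjusted p = 0.667), so that its call rested on the set with whole-cycle values. let-7e, at −2.55, −2.31 and −2.28 in myocytes and −3.99, −2.66 and −2.53 in MDCs, gave −0.64 (95% interval −1.33 to 0.05, adjusted p = 0.0808), and −0.18 without MDC 1 (adjusted p = 0.653). For let-7b the levels were −4.93, −4.55 and −4.50 in myocytes against −6.00, −5.07 and −4.92 in MDCs, a difference of −0.60 (95% interval −1.29 to 0.09, adjusted p = 0.1002) that came to −0.27 without MDC 1 (adjusted p = 0.489). Only MDC 1 lay clearly below the myocyte sets for these 3 members. The intervals with MDC 1 leave room for differences of more than 1 log2 unit.

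let-7a and let-7f showed other patterns. let-7a, at −5.52, −5.71 and −5.73 in myocytes and −6.02, −5.50 and −5.48 in MDCs, was the member whose group means lay closest together. It differed by −0.05 (95% interval −0.74 to 0.64, limma adjusted p = 0.912) and by 0.13 without MDC 1 (adjusted p = 0.741). let-7f was at −7.91, −7.44 and −7.45 in myocytes and at −8.03, −8.37 and −8.62 in MDCs, so that the groups did not overlap and MDC 1 was here the highest MDC reading. Its difference of −0.66 did not pass (adjusted p = 0.0701) and came to −0.82 without MDC 1 (adjusted p = 0.0247).

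**Figure D3:**
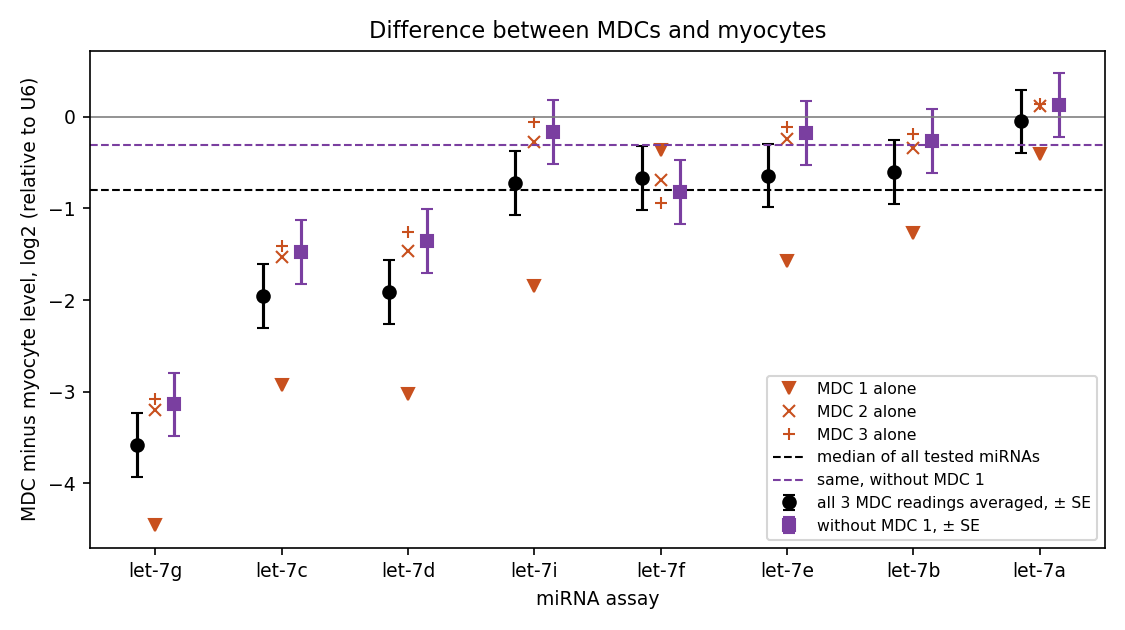
Difference of each tested member between MDCs and myocytes (vertical axis, log2, relative to U6), with the 3 MDC readings averaged (black, ± SE), without MDC 1 (purple, ± SE) and for each MDC reading alone (orange); dashed lines are the medians of all 157 tested miRNAs. let-7g, let-7c and let-7d lie below both medians in all 3 readings, and the MDC 1 reading is the lowest for every member except let-7f.

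The size of these differences depends on U6. The other endogenous controls on the card did not move together: relative to U6, snoRNA135 differed by −0.13, Y1 by −4.49 and U87 by −14.09 between MDCs and myocytes. The U87 Ct was 18.5 to 18.7 in myocytes and 31.0 to 33.2 in MDCs. Set against the median difference of all 157 miRNAs, a measure in which the normaliser cancels, let-7g was at −2.78, let-7c at −1.16 and let-7d at −1.11, while let-7i was at 0.08, let-7f at 0.14, let-7e at 0.16, let-7b at 0.20 and let-7a at 0.75. Without MDC 1 these positions were −2.84, −1.17 and −1.05 for let-7g, let-7c and let-7d. The other 5 members then ranged from −0.51 for let-7f to 0.43 for let-7a. Relative to Y1 or U87 in place of U6, all 8 differences were above 0.

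The ratio of 2 members in the same wells of RNA does not contain the control at all, and an offset that is constant for an assay drops out of its change. The gain per cycle was taken as 2 for every assay and was not measured, so that a difference in it between assays would remain in the change. Each miRNA was therefore used in turn as the normaliser. A ratio was called changed only where it passed limma with each of its 2 members in that place. Of the 28 pairs among the 8 members, 17 changed (60.7%), against 85.3% of the 12246 pairs over all 157 miRNAs. Without MDC 1, 16 of 28 changed, against 85.7% of all pairs, and 15 pairs changed in both. The share of member pairs that changed was below that of the card in both settings, which was not tested further, since pairs that share a member are not independent.

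All 7 ratios with let-7g changed, with and without MDC 1, by 1.62 to 3.53 on the log2 scale (limma adjusted p from 0.00016 to 0.00127). Most ratios on the card changed as well, 85.3% of all pairs with MDC 1 and 85.7% without it. The log2 ratio of let-7g to let-7i was 0.53, 0.67 and 0.67 in myocytes but −2.02, −2.32 and −2.43 in MDCs. let-7g thus read above let-7i in every myocyte set and below it in every MDC set, a change of −2.86 (SE 0.19, adjusted p = 0.00121) or 7.24-fold. The log2 ratio of let-7e to let-7g was 1.17, 1.10 and 1.09 in myocytes and 4.02, 4.09 and 4.11 in MDCs. This ratio varied by less than 0.1 within a group, where sets are in part or all repeated readings of 1 card. It changed by 2.94 (SE 0.19, adjusted p = 0.00016). Whole-cycle Ct values let a ratio in MDC 1 fall only near a whole number, so its closeness to the other MDC readings here carries little weight.

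All 10 ratios of let-7c or let-7d to let-7a, let-7b, let-7e, let-7f or let-7i changed, by 1.19 to 1.91, and 8 did so without MDC 1, the 2 others being those to let-7f. Over all pairs on the card the shares were 85.3% with MDC 1 and 85.7% without it. let-7b and let-7c, which differ by 1 base (G17A from let-7b to let-7c) and have genes 327 bases apart, had a log2 ratio of −0.73, −0.54 and −0.58 in myocytes and of 1.01, 0.54 and 0.58 in MDCs. The assay for let-7c read above that for let-7b in all myocyte sets and below it in all MDC sets, a change of 1.36 (SE 0.23, limma adjusted p = 0.00682) that stood at 1.21 without MDC 1 (adjusted p = 0.00893). let-7c and let-7a also differ by 1 base (G19A from let-7c to let-7a), and their log2 ratio moved from 1.32, 1.70 and 1.81 to −0.98, −0.12 and −0.01, a change of −1.91 (SE 0.45, adjusted p = 0.00288), or −1.60 without MDC 1 (adjusted p = 0.00482). Cross-reaction between assays for such near-identical RNAs was not measured in these data. Between let-7c and let-7d themselves the ratio moved by −0.05 (SE 0.24, adjusted p = 0.856).

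Among let-7a, let-7b, let-7e, let-7f and let-7i, 0 of 10 ratios changed (limma adjusted p from 0.162 to 0.966), and 1, let-7a to let-7f, did so without MDC 1. These members, let-7g, and let-7c with let-7d were grouped with their differences relative to U6 known. A ratio change is the difference between those of its 2 members, so the counts by group restate them and are not further evidence. The log2 ratio of let-7e to let-7i was 1.70, 1.77 and 1.75 in myocytes and 2.00, 1.76 and 1.67 in MDCs, with a change of 0.09 (SE 0.19, adjusted p = 0.694). For let-7b to let-7e the change was 0.04 (SE 0.23, adjusted p = 0.878). Ratios to let-7a and let-7f had a larger SE, of 0.42 to 0.45. That SE is shared by the miRNAs set against the same member and is not the spread of the single ratio. By the number of bases that separate 2 members, 2 of 4 pairs 1 base apart changed, 6 of 8 pairs 2 bases apart, 4 of 8 pairs 3 bases apart and 4 of 6 pairs 4 bases apart. Without MDC 1 these counts were 3, 5, 3 and 4, while 85.3% of all pairs on the card changed with MDC 1 and 85.7% without it. The pair 5 bases apart (let-7e and let-7i) did not pass and the pair 6 bases apart (let-7d and let-7i) changed in both settings.

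**Figure D4:**
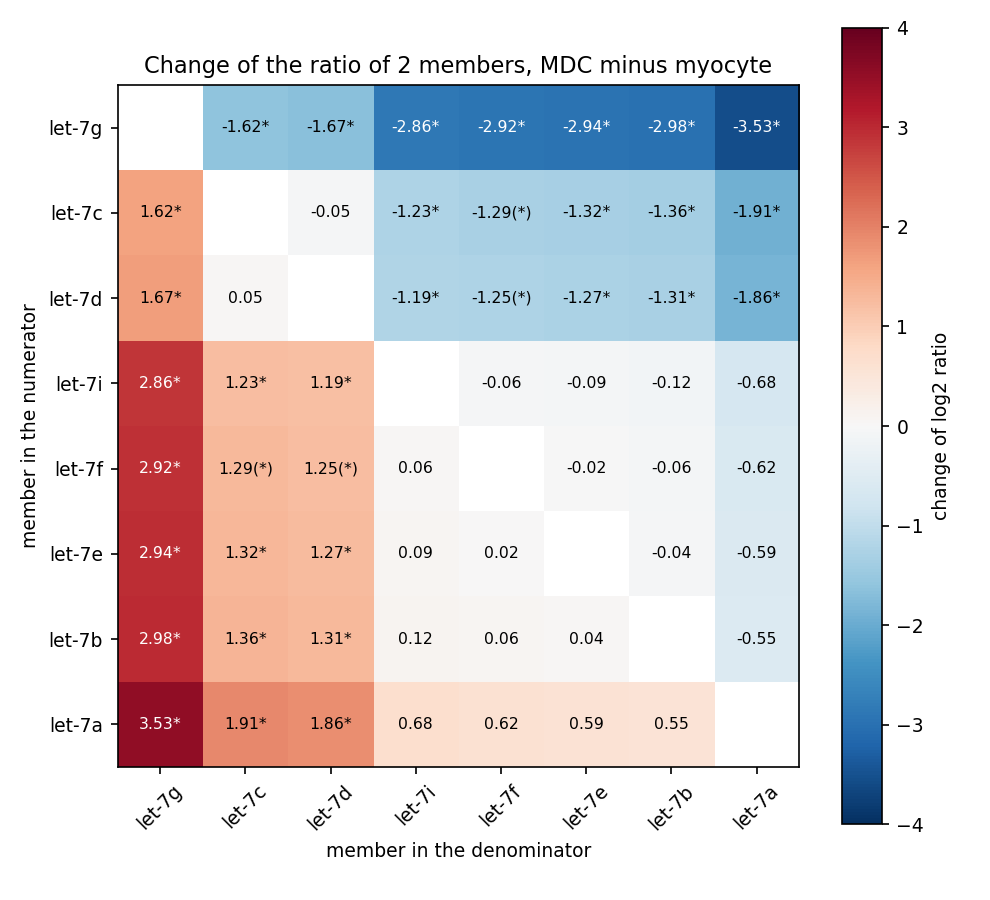
Change between MDCs and myocytes of the log2 ratio of the member on the vertical axis to the member on the horizontal axis; a star marks a ratio that changed with and without MDC 1, a star in brackets 1 that changed only with MDC 1 included. The row of let-7g holds changes of −1.62 to −3.53, and no star stands among let-7i, let-7f, let-7e, let-7b and let-7a.

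The order of the levels differed accordingly between the groups, as read by these assays, whose efficiencies relative to each other are not known. In myocytes it was let-7e, let-7g, let-7d, let-7c, let-7i, let-7b, let-7a and let-7f from high to low, and each step kept its sign in all 3 sets, although let-7d, let-7c and let-7i lay only 0.07 to 0.11 apart. In MDCs it was let-7e, let-7i, let-7b, let-7a, let-7d, let-7c, let-7g and let-7f. Here the step from let-7a to let-7d ran from −0.26 to 0.97 over the 3 readings and so had no settled direction, and the step from let-7g to let-7f was 0.02 in MDC 1 and 1.98 in MDC 3. let-7g moved from place 2 to place 7.

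As a share of the summed signal of the 8 members, which takes all assays to be equally efficient, let-7e made up 36.1% to 36.6% in myocytes and 47.3% to 50.6% in MDCs. let-7g made up 16.1% to 17.1% and then 2.91% to 2.98%. let-7c went from 11.3% to 11.6% in myocytes to 5.86% to 6.54% in MDCs, and let-7d from 11.9% to 12.7% to 5.90% to 7.78%. let-7i held 10.7% to 11.1% in myocytes and 11.8% to 15.7% in MDCs, let-7b 6.95% to 7.77% and 9.54% to 11.8%, let-7a 3.32% to 4.62% and 6.51% to 11.6%, and let-7f 0.880% to 1.04% and 0.738% to 2.87%. Of the 8 shares, only that of let-7f overlapped between the groups, over sets taken as 2 myocyte cards and 1 MDC card. Shares add up to a fixed whole, so lower shares of let-7g, let-7c and let-7d raise the others. The levels of let-7e, let-7i, let-7b and let-7a relative to U6 overlapped between the groups although their shares did not. No matching count was made over the whole card. The level of the summed signal relative to U6 was −1.08, −0.86 and −0.82 in myocytes and −2.91, −1.68 and −1.54 in MDCs, without overlap.

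**Figure D5:**
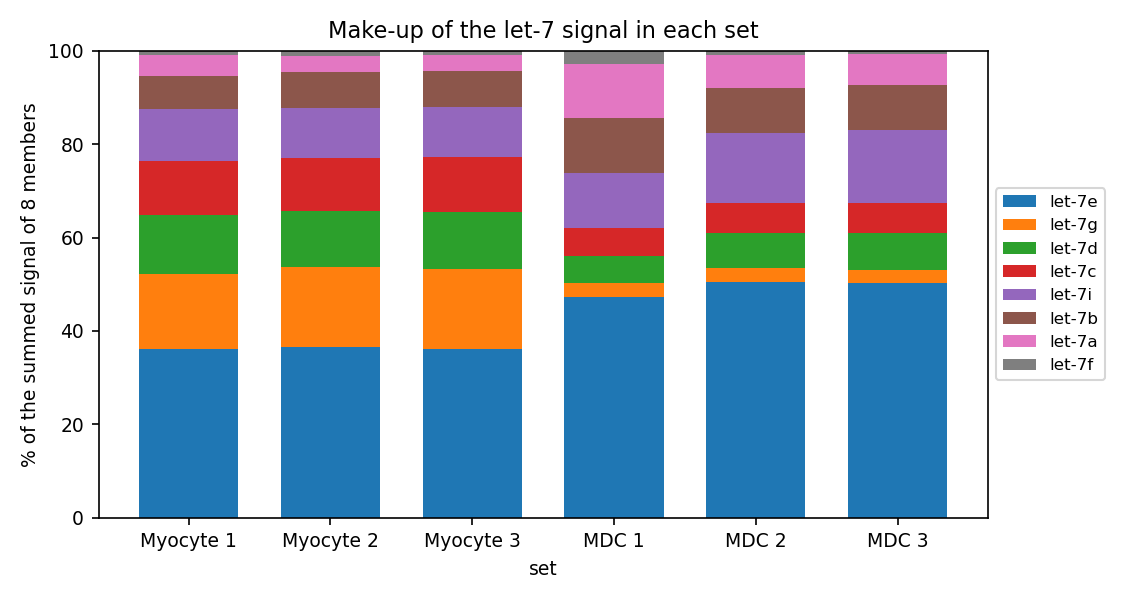
Share of each of 8 members in their summed signal (vertical axis, percent) in each of the 6 sets (horizontal axis), with all assays taken as equally efficient. let-7e holds 36.1% to 36.6% in Myocyte sets and 47.3% to 50.6% in MDC sets, and let-7g goes from 16.1% to 17.1% down to 2.91% to 2.98%.

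mmu-miR-98 was not tested, since it had a signal only in Myocyte 1. Its Ct there was 25.2, which placed it 113 among 212 detected miRNAs and 2.65 log2 units below let-7f. It had no signal before 40 cycles in the other 5 sets. Of the 113 miRNAs with a Ct in Myocyte 1 no later than its own, miR-98 was the only one without signal in Myocyte 2 and Myocyte 3. In all, 16 miRNAs had a signal in Myocyte 1 but not in these sets (median Ct 32.6), and 7 the reverse. The 2 myocyte cards thus gave opposite answers for miR-98, and these data give no difference between groups for it.

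The miRNAs whose genes accompany let-7 genes in mammals, miR-99a, miR-99b, miR-100, miR-125a-5p and miR-125b-5p, were looked at beside the members. The sequence of miR-125 is related to lin-4, another timing regulator of Caenorhabditis elegans. Of these 5, limma called 2 lower and 0 higher, with a median of −0.68, against 52.2% lower and 28.0% higher over the card. Without MDC 1 it called 1 lower, against 47.1% over the card. miR-125a-5p differed by −0.95 (SE 0.35, adjusted p = 0.00980) and by −0.38 without MDC 1 (adjusted p = 0.327). miR-99b differed by −0.73 (SE 0.35, adjusted p = 0.0488) and by −1.07 without MDC 1 (adjusted p = 0.00350). The other 3 did not pass in either setting. miR-99a, next to a let-7c gene, differed by −0.25 (adjusted p = 0.519) and by −0.30 without MDC 1 (adjusted p = 0.436). miR-100 differed by −0.68 (adjusted p = 0.0644) and −0.28 (adjusted p = 0.466), and miR-125b-5p by 0.22 (adjusted p = 0.564) and 0.49 (adjusted p = 0.195).

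Among 149 other miRNAs with signal in every set, the 5 whose levels followed the mean of the 8 members most closely over the 6 sets were miR-29a, miR-128a, miR-324-5p, miR-301a and miR-138. Their root mean square difference from that mean, each centred on its own average, was 0.106, 0.132, 0.191, 0.201 and 0.210. The members themselves lay farther from their own mean, from 0.325 for let-7b to 1.17 for let-7g. The 5 were picked as the closest of 149 and the members were not, so this contrast follows at least in part from the choice. miR-29a, known for repressing collagen genes in the heart, differed by −1.37 between MDCs and myocytes (SE 0.35, limma adjusted p = 0.0002) and by −0.93 without MDC 1 (adjusted p = 0.0105). With repeated readings taken as 1 card, the 6 sets stand for 3 samples, so that this likeness rests on few independent points.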

How the data were processed

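The authors deposited raw Ct values of TaqMan rodent miRNA cards per set and a table of Ct minus mean U6 Ct, in PCR cycles, which differed from the raw values so computed by at most 5e-05. The RNA was extracted with a mirVana Paris kit, per the labels, and pre-amplified before the PCR, per the methods. Threshold and baseline settings are not given in the sources used here. A Ct of 40 or an undetermined well was read as no signal. A Ct carries no count of molecules, so no counting interval was computed.

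Levels (mean U6 Ct minus Ct) of the miRNAs detected in every sample were compared in R 4.3.3 by limma 3.58.1, with Benjamini-Hochberg adjustment over all of them and a threshold of 0.05. Sets of a group with identical wells without signal were averaged first. Their U6 wells also ran in parallel, which did not enter the grouping itself. With 2 samples against 1, an exact permutation test cannot go below p = 0.333, and none was run. Calls were tested on simulated data. The text names all members, the 5 cluster partners, the 5 miRNAs most like the family mean and the controls. Members and lists were chosen with earlier results of these data known. Alternatives were other controls or no control, Ct limits, missing Ct at 40, other moderation, each MDC reading alone, unaveraged sets, leaving out each set, a block for the replicate number and the unpaired test named in the methods. Sequences and positions are from RefSeq (GRCr8). Figures were drawn with matplotlib 3.10.9.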

Additional observations from a re-analysis of the deposited data

How the results depend on the processing

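let-7c, let-7d and let-7g were lower in 22 of 25 tested alternatives, the exceptions being the mean of the other controls, Y1 alone and U87 alone. let-7i was lower in 7. The alternatives refit the same few cards and overlap, so these tallies are not independent evidence. Relative to the mean of the other controls the differences were 5.64 (let-7b), 4.28 (let-7c), 4.32 (let-7d), 5.60 (let-7e), 2.66 (let-7g), 5.51 (let-7i), 6.19 (let-7a) and 5.57 (let-7f), median 5.54, with 0 lower and 8 higher. Relative to Y1 alone they were 3.89, 2.53, 2.58, 3.85, 0.91, 3.76, 4.44 and 3.82 in the same order, median 3.79, with 0 lower and 7 higher, and relative to U87 alone 13.5, 12.1, 12.2, 13.5, 10.5, 13.4, 14.04 and 13.4, median 13.4, with 0 lower and 8 higher. Relative to the mean of all detected miRNAs let-7b was at 0.30, let-7e at 0.26, let-7i at 0.18, let-7a at 0.86 and let-7f at 0.24, median 0.21, with 1 higher. Relative to their median these were 0.24, 0.20, 0.11, 0.79 and 0.18, median 0.14, and with no normaliser 0.31, 0.27, 0.19, 0.86 and 0.25, median 0.22, with 1 higher. let-7a was at 0.084 relative to snoRNA135, at 0.12 from MDC reading 2 alone and at 0.14 from MDC reading 3 alone. Each normaliser shifts all miRNAs by 1 common amount, so that the ratios between members stay as they are. The median of all tested miRNAs was 5.44 relative to the mean of the other controls, 3.69 relative to Y1 and 13.3 relative to U87. The counts of higher members with these controls thus go with a shift of the whole card and are not a result about the members. The counts relative to the mean of all detected miRNAs and with no normaliser have no share over the whole card beside them. They are likewise not read as a result about the members.

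A detection limit of Ct 32, which leaves fewer miRNAs, gave 7 members lower. MDC reading 1 alone gave a median of −1.71. Over the sets left out one at a time the median ranged from −0.98 to −0.54, let-7a from −0.14 to 0.13, the number of lower members from 3 to 6 and that of changed ratios from 16 to 17. The call of let-7i was lost without MDC 1 or Myocyte 2. let-7e and let-7b were lower (adjusted p from 0.0136 to 0.0472) without MDC 2 or without MDC 3. Without Myocyte 1 no residual degrees of freedom remain, so that only differences were computed. With the 6 sets as separate samples 3 members were lower and 15 ratios changed. The limma adjusted p was then 9.80e-06 for let-7g, 0.00264 for let-7c and 0.00427 for let-7d. By the unpaired t-test of the methods the adjusted p was 0.00455, 0.0283 and 0.0442 in the same order. These values are far larger than those from averaged readings, although they count repeated readings as samples. The size of the p-values thus depends on how the sets are counted. Deviations of same-numbered sets correlated at 0.117, −0.077 and 0.238 over 157 miRNAs, and Myocyte 2 was most like MDC 3, so the numbers were not taken as pairs. With the replicate block 3 members were lower, as without it, and let-7g differed by −3.64. Of the settings in this paragraph, shares over the whole card are given only without MDC 1 (47.1% of miRNAs lower, 85.7% of ratios changed). The other counts of members and ratios have no such share beside them. Levels resolved to about 1 cycle in MDC 1 and a single MDC card limit all differences under 1 log2 unit.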

Other observations

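The whole-cycle Ct values of MDC 1 bear on the whole card. Leaving that set out changed the call of 22 of 157 miRNAs: 10 went from lower in MDCs to not passed, 10 from not passed to higher, and 2 from not passed to lower. The numbers of lower and higher miRNAs went from 82 and 44 to 74 and 54. No miRNA changed from lower to higher.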
